A study of Mus musculus with 2 samples.

Results

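The enzymes of the citric acid cycle and of the malate-aspartate shuttle were examined in total RNA of heart, through 30 genes taken by exact symbol from the deposited transcript tables and joined by gene identifier to the gene tables. All 30 were found once, among 55536 annotated genes. The tissue came from male B6CASTF1/J mice (the first-generation cross of C57BL/6J and CAST/EiJ) aged 18 to 20 months, and the labels name no treatment. The 2 libraries, biological replicates 2 and 1, formed 1 group, so the data hold no contrast between ages, genotypes or treatments. The input was 300 ng of RNA per library, to which the ERCC mix of synthetic control RNAs had been added. The replicates carried different sample identifiers and the same donor identifier, so differences between them measure only the spread of these samples and may be technical in part. Depth was 37447840 expected counts in replicate 2 and 39053830 in replicate 1.

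The cycle oxidises acetyl-CoA in the mitochondrial matrix and passes the electrons to the respiratory chain, and heart muscle draws most of its energy from that route. The inner mitochondrial membrane does not let NADH through, so the malate-aspartate shuttle carries the electrons of cytosolic NADH inward by pairs of enzymes, one in the cytosol and one in the matrix, joined by carriers in the membrane. Malic enzymes, pyruvate carboxylase and glutamate dehydrogenase add or remove intermediates, and ATP citrate lyase splits exported citrate in the cytosol for lipid synthesis.

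The heart label was checked against marker genes. All 8 cardiomyocyte markers were above 1 TPM, and their summed level was 35074 TPM in replicate 2 and 42660 in replicate 1. Summed markers were at 128 and 129.7 TPM for endothelial cells, 174 and 185 TPM for fibroblasts, 28.3 and 41.0 TPM for macrophages, 4837 and 7070.3 TPM for erythroid cells and 2.23 and 5.82 TPM for hepatocytes in replicates 2 and 1. Of 4 skeletal muscle markers, Myh4 was at 0 in both libraries and Myh1 at 0 and 0.01 TPM, while Ckm and Acta1, which heart also expresses, took nearly all of 1514 and 1650.2 TPM. TPM is a transcript level scaled by length and by the library's sum, so it can be compared between genes. Mitochondrially encoded RNA held 38.9% of TPM in replicate 2 and 33.0% in replicate 1, which lowers the TPM of nuclear genes in replicate 2. The 30 genes together held 2.17% of nuclear protein-coding TPM in replicate 2 and 2.15% in replicate 1. In bulk tissue, fewer cells of a type and less RNA per cell cannot be told apart.

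All 30 genes stood at 1 TPM or more in both libraries. Their median was 220.7 TPM in replicate 2 and 250.0 TPM in replicate 1, against 7.88 and 8.68 TPM for the 11116 nuclear protein-coding genes that averaged 1 TPM or more. In both libraries 18 genes passed 100 TPM, and the same number ranked within the first 500 of 22015 nuclear protein-coding genes by mean level. Mdh1 and Idh2 were the most abundant, at 942 ± 87.4 and 907 ± 3.66 TPM (mean ± SD, n = 2 as for all such values), followed by Mdh2 at 727 ± 97.9 and Ogdh at 716 ± 34.4. The ranges of Mdh1 and Idh2 overlapped, as did those of Mdh2 and Ogdh, so the order within each of these pairs was not resolved. In the second transcript table, a separate quantification, Ogdh had the highest mean of the 30 genes, at 1131 TPM. Idh2 followed there at 995 TPM, Mdh1 at 948 TPM and Mdh2 at 783 TPM, so the rank of Ogdh depended on the quantification. A gap separated the 18 genes down to Idh3a, at 204 ± 31.2 TPM, and the 12 genes from Glud1, at a mean of 63.3 TPM, downwards.

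**Figure D1:**
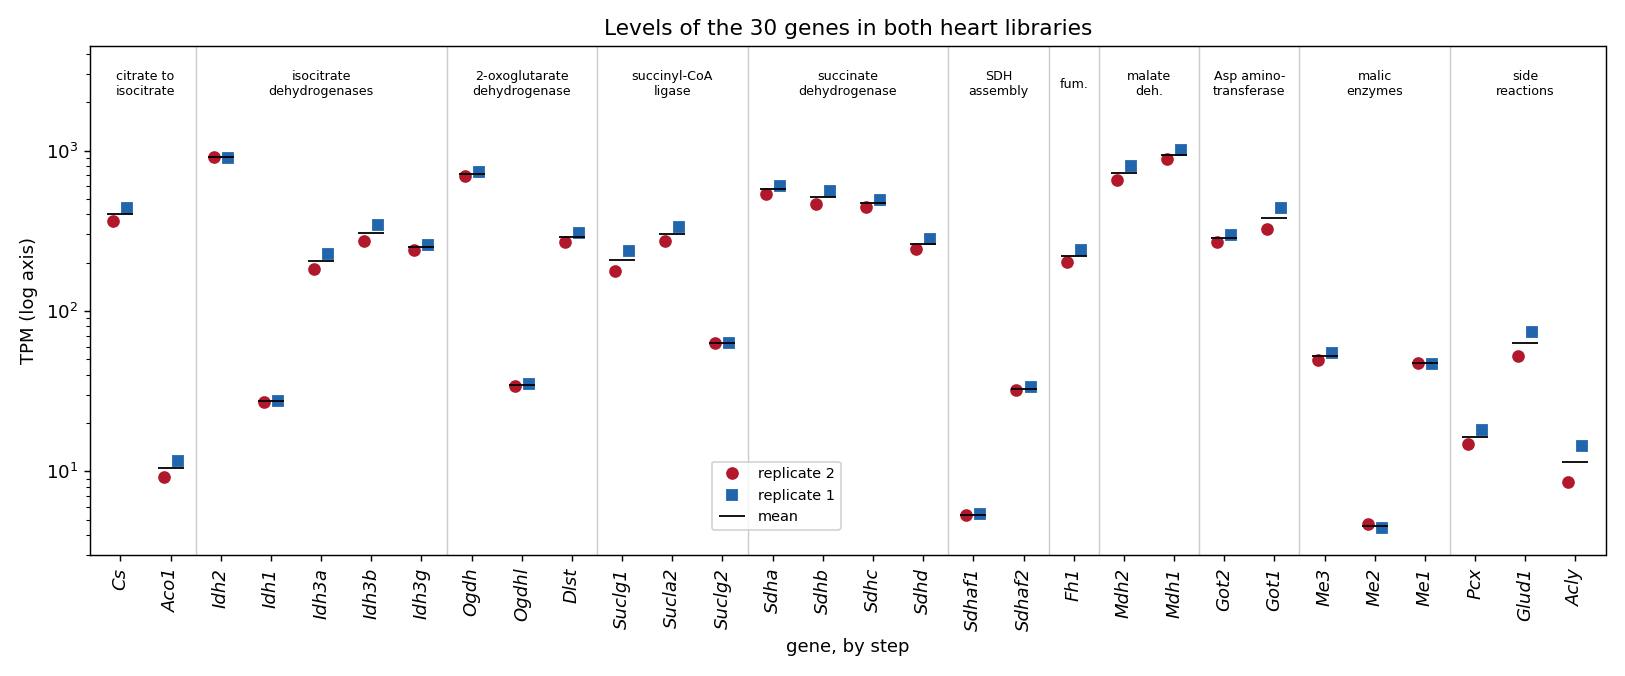
Level of each gene in TPM (log axis), grouped by step, with replicate 2 as circles, replicate 1 as squares and the mean as a bar. The first isozyme of the isocitrate dehydrogenases, Idh2, sat at 907 TPM on average and its cytosolic counterpart Idh1 at 27.4 TPM, while the isozymes of malate dehydrogenase and of aspartate aminotransferase lay close together.

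Citrate synthase (Cs), which joins acetyl-CoA to oxaloacetate at the entry of the cycle, was at 364 TPM in replicate 2 and 439 TPM in replicate 1. Aco1, the cytosolic aconitase that also serves as an iron-responsive RNA-binding protein, was at 9.27 TPM in replicate 2 and 11.5 TPM in replicate 1. The gene of mitochondrial aconitase is not among the 30 and is not analysed here. Isocitrate is oxidised by an NAD-linked enzyme of 3 kinds of subunit and by NADP-linked enzymes in matrix and cytosol. Idh2, the NADP-linked matrix enzyme (chromosome 7, 80094846 to 80115392, minus strand, mm10 with GENCODE M21), reached 909.9 TPM in replicate 2 and 905 TPM in replicate 1. Of the NAD-linked subunits, the catalytic Idh3a was at 182 and 226 TPM, Idh3b at 272 and 345 TPM and Idh3g at 239.7 and 259 TPM in replicates 2 and 1. Idh2 therefore exceeded each NAD-linked subunit in both libraries, and it held 81.7% ± 2.36 of the TPM of Idh2 and Idh3a.

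The 2-oxoglutarate dehydrogenase complex, which makes succinyl-CoA, was represented by its decarboxylating subunit Ogdh at 692 TPM in replicate 2 and 740.3 TPM in replicate 1. Dlst, its succinyl-transferring core, was lower, at 270.4 TPM in replicate 2 and 306 TPM in replicate 1. The paralogue Ogdhl stood at 34.2 and 35.0 TPM, so Ogdh held 95.4% ± 0.143 of the pair. Succinyl-CoA ligase pairs 1 alpha subunit, Suclg1, with a beta subunit that makes ATP (Sucla2) or GTP (Suclg2). Sucla2 was at 273 TPM in replicate 2 and 335 TPM in replicate 1, against 62.8 and 63.4 TPM for Suclg2, of which 8.60% of 100-base stretches also occur in a pseudogene. The ATP-forming subunit held 82.7% ± 1.98 of the TPM of both beta subunits. Suclg1 was at 178 and 237 TPM, below Sucla2 in both libraries.

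Succinate dehydrogenase sits in the inner membrane and belongs to the respiratory chain as complex II. Its flavoprotein Sdha was at 539.6 TPM in replicate 2 and 606 TPM in replicate 1, its iron-sulphur subunit Sdhb at 467 and 559 TPM, and its membrane anchors Sdhc and Sdhd at 446 and 492 TPM and at 242 and 281 TPM. In each library the order was Sdha, Sdhb, Sdhc, Sdhd in the gene table. The order depended on the quantification, and in the second transcript table Sdhb held 38.3% ± 0.0900 and Sdha 28.7% ± 0.398 of the 4 subunits' TPM. The assembly factors were far lower: Sdhaf2, which helps add the flavin, was at 31.9 TPM in replicate 2 and 33.3 TPM in replicate 1. Sdhaf1, which helps insert the iron-sulphur clusters, was at 5.32 and 5.42 TPM. Of the exon bases of Sdhaf1, 69.6% overlap a gene on the opposite strand that was listed at 0.36 TPM in replicate 2 and 0.18 TPM in replicate 1, and whether counting used the strand is not given in the sources used here. Fumarase (Fh1), which hydrates fumarate to malate, was at 202 TPM in replicate 2 and 242 TPM in replicate 1.

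The enzyme pairs of the shuttle had like levels for both compartments, while the NADP-linked isocitrate dehydrogenases did not. Mdh2, the matrix malate dehydrogenase (chromosome 5, 135778480 to 135790398, plus strand), was at 658 TPM in replicate 2 and 796 TPM in replicate 1, against 881 and 1004 TPM for the cytosolic Mdh1 (chromosome 11, 21556787 to 21572367, minus strand). Mdh2 held 43.5% ± 1.04 of the pair. Got2, the matrix aspartate aminotransferase (chromosome 8, 95864134 to 95888547, minus strand), was at 269.6 TPM in replicate 2 and 297 TPM in replicate 1, against 322 and 436 TPM for the cytosolic Got1 (chromosome 19, 43499752 to 43524605, minus strand). In both pairs the cytosolic gene was the higher one in each library. Idh2, in contrast, held 97.1% ± 0.0474 of Idh2 and Idh1, since Idh1 was at 27.1 and 27.6 TPM. Summed over the 3 pairs, the matrix enzymes held 58.8% ± 1.59. That majority rests on Idh2, since Mdh2 and Got2 were each below their cytosolic counterparts.

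**Figure D2:**
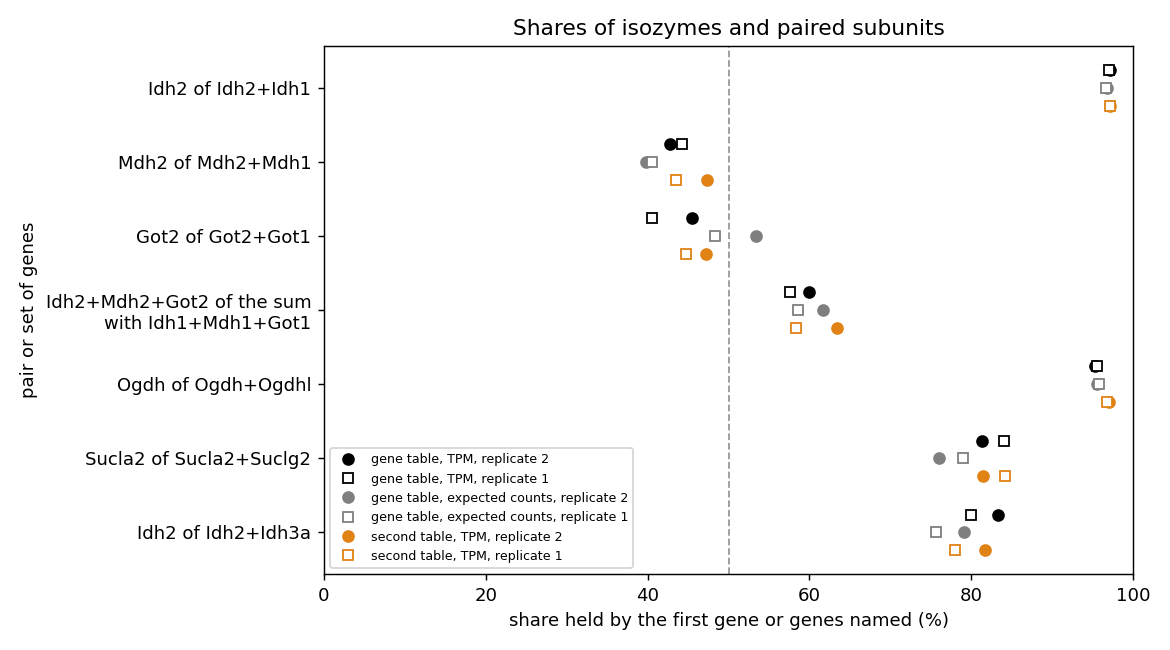
Share (%) of the genes named first in each pair or set, in each library (filled circles, replicate 2; open squares, replicate 1), by gene-table TPM, gene-table expected counts and second-table TPM; the dashed line marks equal shares. Idh2 against Idh1 and Ogdh against Ogdhl held over 95% under every measure plotted, Mdh2 stayed left of the line and Got2 crossed it only in the counts of replicate 2.

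The share of Got2 was the least settled of the pairs. It was 45.5% of TPM in replicate 2 and 40.5% in replicate 1, a mean of 43.0% ± 3.57. In expected counts, which are not scaled by length, Got2 held 53.4% in replicate 2 (95% exact Clopper-Pearson interval 52.9 to 53.9) and 48.3% in replicate 1 (47.9 to 48.8). Such intervals cover counting error only. In the second transcript table, a separate quantification by the authors, the shares of TPM were 47.2% and 44.7% in replicates 2 and 1. Of the 100-base stretches of Got2 transcripts, 8.83% also occur in the pseudogene Got2-ps1, which was listed at 68.4 TPM in replicate 2 and 84.1 TPM in replicate 1, so the split of reads between these genes is uncertain.

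The malic enzymes turn malate into pyruvate. The NADP-linked matrix enzyme Me3 was at 49.6 TPM in replicate 2 and 54.7 TPM in replicate 1, the NAD-linked matrix enzyme Me2 at 4.71 and 4.42 TPM, and the cytosolic NADP-linked Me1 at 47.5 and 46.9 TPM. Me3 thus held 50.2% ± 2.01 of their TPM and Me1 45.4% ± 1.69. In expected counts the order turned round, with 32.1% for Me3 and 63.3% for Me1. In the second table Me3 held 47.2% ± 2.35 of TPM and Me1 48.4% ± 1.39, so the order of these genes per length was not settled. In the first transcript table, most of the Me3 TPM lay in transcripts of 1130 and 1807 bases, described further on. Among Me1 stretches of 100 bases, 12.3% also occur in 2 pseudogenes. Together these were listed at 28.3 TPM in replicate 2 and 20.4 TPM in replicate 1, so the split of reads with Me1 is uncertain. Of the other entry and exit reactions, pyruvate carboxylase (Pcx), which makes oxaloacetate, was at 14.7 TPM in replicate 2 and 18.1 TPM in replicate 1. Glutamate dehydrogenase (Glud1), which makes 2-oxoglutarate from glutamate, was at 52.6 and 73.9 TPM. Acly was at 8.54 TPM in replicate 2 and 14.3 TPM in replicate 1.

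Between the libraries, none of the 30 genes differed 2-fold, against 0.533% of 12189 genes at 2-fold or more higher and 1.13% at 2-fold or more lower in replicate 2. Ratios are log2 of replicate 2 over replicate 1 on TMM-scaled counts. By an exact binomial test that compares these 2 libraries and not conditions, with Benjamini-Hochberg adjustment over all genes, 3 genes were higher in replicate 2 (Idh2, Ogdhl, Suclg2), beside 10.6% of all genes tested. In the same test 16 were lower, beside 15.8% of all genes tested. An unadjusted p under 0.05 was found for 21, as for 35.1% of all genes tested. The exact test calls smaller differences at higher counts: Ogdh was called at -0.02 on 78004 and 87026 counts in replicates 2 and 1. The median level of the 30 genes was above that of expressed nuclear protein-coding genes, so the shares of all genes are not matched for counts. The numbers of genes called depended on the scaling. Summed spike-ins gave 10 higher and 8 lower, beside 2843 and 980 of all 12189 genes. Total counts gave 1 higher and 21 lower, beside 694 and 3448 of all. The median ratio was -0.08 for the 30 genes and -0.02 for all genes tested with TMM, and 0.02 and 0.08 with spike-ins. With TMM, 7 of the 8 cardiomyocyte markers also had a ratio below 0, with a median of -0.16. Whether the 30 genes differed apart from other heart muscle genes was not tested. Under TMM, total counts, DESeq2 size factors, spike-ins and the second table alike, Idh2 was called higher, and Cs, Idh3a, Idh3b, Suclg1, Sucla2, Mdh2, Got1 and Acly lower, in replicate 2. The share of all genes called alike under these settings was not computed, so whether this number is unusual cannot be told.

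The sizes were small for most of the 30 genes, as for most genes tested. In all, 29 of the 30 genes lay within 1.5-fold, beside 94.9% of all genes tested. Idh2 had a ratio of 0.14 (95% interval 0.12 to 0.16) while the NAD-linked Idh3a and Idh3b had -0.14 (-0.18 to -0.11) and -0.21 (-0.24 to -0.18). Got1 had -0.30 (-0.33 to -0.28), with adjusted p = 7.74e-98 in the exact test, while Got2, at -0.01 (-0.04 to 0.01), was not called. Glud1 had a ratio of -0.01 (-0.07 to 0.05) on 4176 counts in replicate 2 and 4616 in replicate 1, although its TPM differed more. Its leading transcript Glud1-201 held 76.2% of its TPM in replicate 2 and 57.2% in replicate 1.

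**Figure D3:**
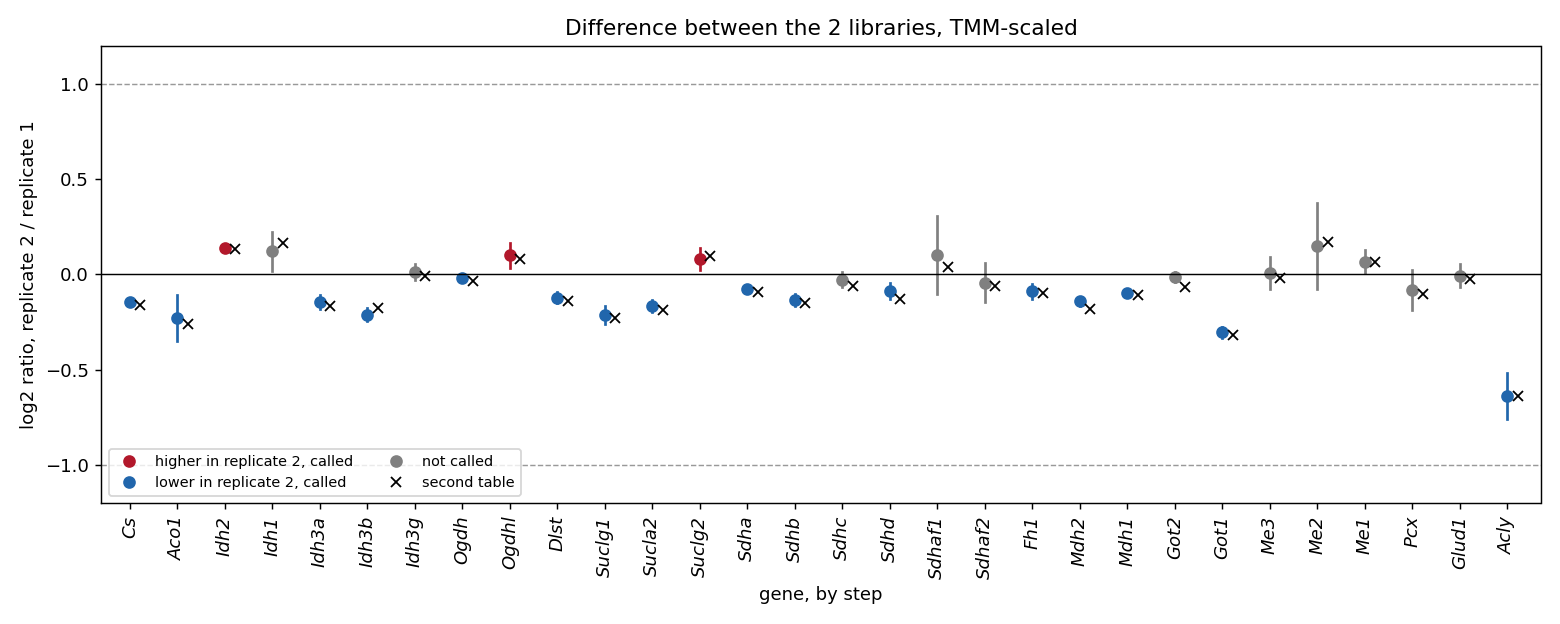
Log2 ratio of replicate 2 over replicate 1 for each gene, with 95% exact intervals for counting error; red marks genes called higher, blue called lower and grey not called, and crosses give the second transcript table. All lie inside the dashed 2-fold lines, and Acly, at -0.64, lies farthest from 0.

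Acly (chromosome 11, 100476353 to 100528000, minus strand) was the one gene outside 1.5-fold. It had 891 expected counts in replicate 2 and 1526 in replicate 1, a ratio of -0.64 (-0.76 to -0.52) with adjusted p = 7.10e-25 in the exact test. Its ratio was between -0.72 and -0.54 under the alternatives for scaling, filter and table. Slc25a1, the carrier that exports the citrate Acly splits, was at 1.69 TPM in replicate 2 and 4.16 TPM in replicate 1, a ratio of -1.15 (-1.57 to -0.78). Fasn, the fatty acid synthase that uses the resulting acetyl-CoA, was at 2.74 TPM in replicate 2 and 16.7 TPM in replicate 1, a ratio of -2.33 (-2.45 to -2.22). Fasn belongs to a list of 8 white adipocyte markers whose summed level was 15.1 TPM in replicate 2 and 74.1 TPM in replicate 1. All 7 tested of them had a ratio below 0, with a median of -2.11, and none of the 8 was at 0 in both libraries. Among them Adipoq was at 1.15 and 5.98 TPM and Cfd at 2.63 and 20.0 TPM in replicates 2 and 1. Other marker lists had median ratios of -1.47 (hepatocyte, 2 tested), -0.37 (erythroid), -0.25 (macrophage) and -0.16 (cardiomyocyte). The medians were 0.06 for endothelial, 0.15 for fibroblast and 0.22 for skeletal muscle markers. The part of adipocytes or other cells in the Acly difference was not tested.

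Carriers and enzymes next to the cycle were read beside it. Of 39 such genes listed, 37 were matched and 33 reached 1 TPM in both libraries. Their median ratio was -0.08, against -0.02 for all genes tested. In replicate 2, 5 were called higher and 14 lower, beside 10.6% and 15.8% of all genes tested, shares that are again not matched for counts. The 6 most abundant included Oxct1, which activates ketone bodies, at 510.2 TPM in replicate 2 and 497 TPM in replicate 1. The pyruvate dehydrogenase subunits Pdha1, at 394 and 493 TPM, and Pdhb, at 277 and 359 TPM in replicates 2 and 1, supply acetyl-CoA to Cs. The pyruvate carrier subunits were Mpc1, at 326 and 356 TPM, and Mpc2, at 226 and 267 TPM. Slc25a11, the 2-oxoglutarate-malate carrier of the shuttle, was at 241 TPM in replicate 2 and 287 TPM in replicate 1. Its partners, the aspartate-glutamate carriers Slc25a12 and Slc25a13, named here after their values were seen, were at 87.8 and 102 TPM and at 44.5 and 59.3 TPM. Besides Slc25a1, only Pck1, the cytosolic enzyme that turns oxaloacetate into phosphoenolpyruvate, differed 2-fold among these 33, with 1.09 TPM in replicate 2, 4.97 TPM in replicate 1 and a ratio of -1.97 (-2.35 to -1.65). Slc1a3, Slc25a18, Got1l1 and Mdh1b were under 1 TPM in both libraries, and Mdh1b was listed at 0 in each.

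The transcripts behind the gene levels were compared in both transcript tables. The same transcript led in both tables for 25 of the 30 genes. For 9 genes it accounted for over 90% under either quantification, among them Cs, Idh2, Idh3b, Sdhb and Got2. Of the TPM of a gene, the median over the 30 genes in transcripts annotated as protein-coding was 97.7% by the first table and 97.9% by the second, against 94.7% and 92.7% over all nuclear protein-coding genes at that minimum of 1 TPM.

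**Figure D4:**
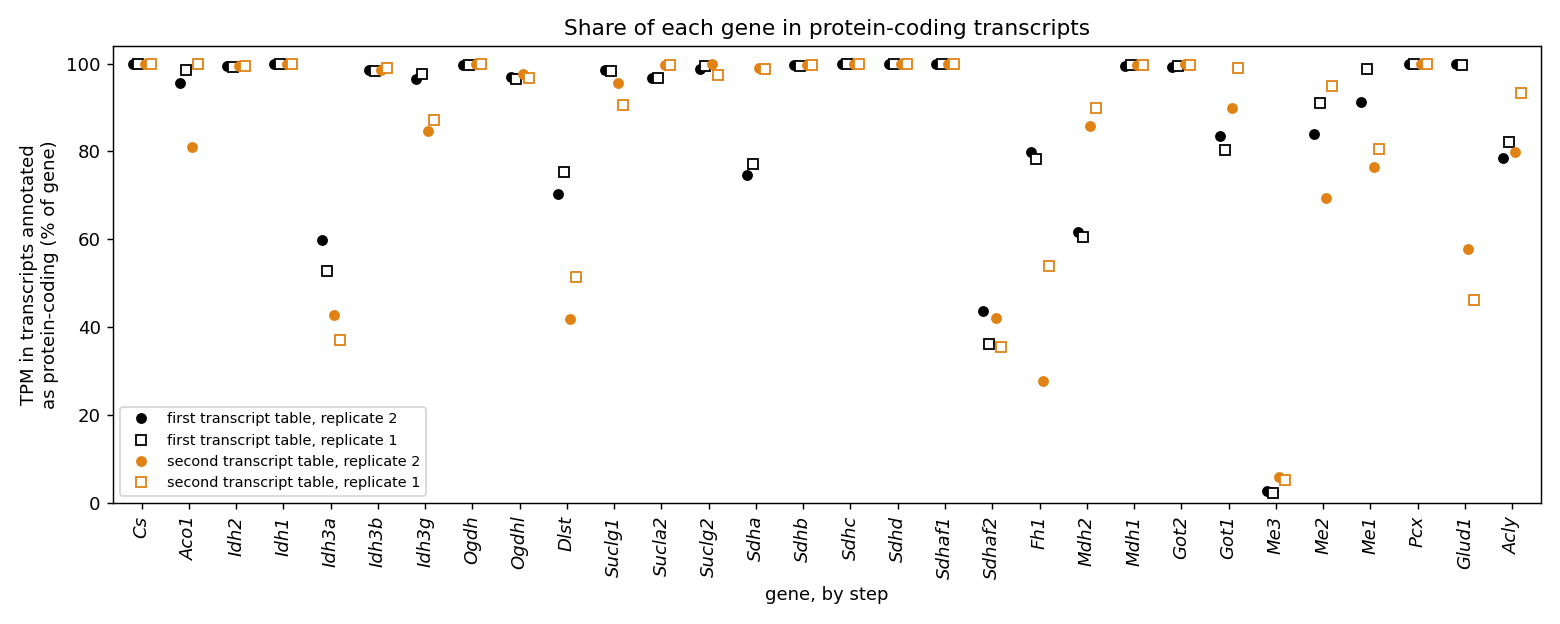
Share (%) of each gene's TPM in transcripts annotated as protein-coding, in the first (black) and second (orange) transcript tables, with replicate 2 as filled circles and replicate 1 as open squares. Me3 lies under 10% in each, Idh3a and Sdhaf2 lie under 75% in each, and Dlst averages 72.9% and 46.7%. Glud1, Fh1, Mdh2, Dlst and Sdha lie farthest apart between the tables. On average 5 genes were under 75% by the first table and 6 by the second. Beside them stand 21.8% and 25.9% of all nuclear protein-coding genes averaging 1 TPM or more.

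Me3 (chromosome 7, 89632392 to 89854359, plus strand) had the lowest such share of the 30, with 2.70% of its TPM in its protein-coding transcript Me3-202 in replicate 2 and 2.19% in replicate 1. In the second table the values were 5.84% and 5.32%. A share under 10% was found in 0.882% of all such genes by the first table and 1.07% by the second. Most of the remainder was in Me3-201, annotated as a processed transcript, at 55.2% in replicate 2 and 54.4% in replicate 1, and in Me3-203, annotated with a retained intron, at 40.3% and 41.0%. Most bases of both lie in exons of the coding transcript, 94.8% for Me3-201 and 77.8% for Me3-203. The last exon of Me3-202, of 2624 bases, makes up most of its 4485 bases. Reads in shared exons can be assigned to either kind of transcript, and the Me3 level per length depends on that assignment.

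A few exons that set apart the transcripts of Ogdh, Acly, Mdh2 and Idh3a are shown because the results that follow are shares of them. They were chosen after the transcript shares were seen. Each is printed 5′ to 3′ on the transcript's strand from GENCODE M21 transcripts (mm10), with the alternative exon in capitals and up to 20 bases of the neighbouring exons in lower case. The Ogdh exons lie at chr11:6316765-6316855 and chr11:6316978-6317080 on the plus strand, after the same upstream exon. Each leaves a remainder of 1 when its length of 91 or 103 bases is divided by 3. The exons printed after them differ, so they are not a simple swap between the same neighbours in the transcripts shown. The Acly exon lies at chr11:100503160-100503189 on the minus strand, with a length of 30 bases. The Mdh2 exon lies at chr5:135783305-135783473 on the plus strand, with a length of 169 bases. For Idh3a the annotated coding part of the exon is shown, at chr9:54592161-54592181 on the plus strand, with the exon before it.
Ogdh first alternative exon: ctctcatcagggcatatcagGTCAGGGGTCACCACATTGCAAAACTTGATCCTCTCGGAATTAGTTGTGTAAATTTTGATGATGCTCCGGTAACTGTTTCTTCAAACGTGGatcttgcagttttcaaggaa
Ogdh second alternative exon: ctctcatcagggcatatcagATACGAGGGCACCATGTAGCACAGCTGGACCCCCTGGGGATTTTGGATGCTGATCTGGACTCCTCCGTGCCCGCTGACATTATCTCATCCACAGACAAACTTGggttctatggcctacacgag
Acly optional exon: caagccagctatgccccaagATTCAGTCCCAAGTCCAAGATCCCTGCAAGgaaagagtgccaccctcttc
Mdh2 exon absent from Mdh2-203: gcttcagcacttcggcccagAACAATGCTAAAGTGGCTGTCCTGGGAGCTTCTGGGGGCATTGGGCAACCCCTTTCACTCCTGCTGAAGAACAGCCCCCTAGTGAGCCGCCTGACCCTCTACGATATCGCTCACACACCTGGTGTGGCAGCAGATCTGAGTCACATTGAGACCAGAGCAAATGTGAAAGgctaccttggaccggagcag
Idh3a exon of Idh3a-204, coding part: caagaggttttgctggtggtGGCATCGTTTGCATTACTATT

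Ogdh used nearly only the second of its alternative exons, counted over the transcripts that span both. That exon was in 99.0% of their TPM in replicate 2 and 99.2% in replicate 1, and in 99.6% and 99.5% in the second table. The first alternative exon was in the remaining 0.998% and 0.808% of the first table. The short transcripts Ogdh-207 and Ogdh-206 do not span these exons, so these shares leave them out. On average they held 6.66% and 1.09% of Ogdh TPM in the first quantification, and 22.8% and 16.4% in the second. Acly had its optional exon in 44.9% of the spanning TPM in replicate 2 and 50.2% in replicate 1, and in 46.3% and 48.9% in the second table, so transcripts with and without it were present in like amounts.

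For Mdh2 and Idh3a the share of decay transcripts (annotated as targets of nonsense-mediated decay) depended on the table. The Mdh2 exon was present in 61.8% of spanning TPM in replicate 2 and 60.4% in replicate 1, and in 83.9% and 89.5% in the second table. The decay transcript Mdh2-203, which lacks it, held 38.1% and 39.3% of the gene by the first table and 14.05% and 10.05% by the second. The Idh3a exon was in 39.7% of spanning TPM in replicate 2 and 44.9% in replicate 1, against 57.0% and 62.9% in the second table, where its transcript Idh3a-204 led. Sdhaf2 was led by a decay transcript, Sdhaf2-206, in both tables, at 41.4% ± 5.69 in the first and 42.2% on average in the second.

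Short transcripts were also assigned differently by the tables. Sdhc-203, of 298 bases, held 42.5% of Sdhc TPM in replicate 2 and 38.5% in replicate 1 in the first table, and 0.15% or less in the second. By gene, the second table gave a higher mean TPM for 27 of the 30 and a lower one for Sdhc (0.641-fold), Sdha (0.859-fold) and Acly (0.963-fold). Only Fh1 (1.65-fold), Ogdh (1.58-fold) and Sdhc moved by over 1.5-fold. The ratio of replicate 2 over replicate 1 kept its sign in 28 of 30 genes.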

How the data were processed

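Total RNA of heart was sequenced in 2 libraries of 1 group. Per the file headers, the authors deposited expected counts and TPM in a gene table and a first transcript table, and estimated counts and TPM in a second transcript table. Per the labels the build was mm10, and the transcript identifiers matched GENCODE M21. Which tools quantified the reads is not given in the sources used here.

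Levels and shares are deposited TPM. Per gene, transcripts of the second table were added up; 86 genes had no entry there. Rounding turned expected counts into whole numbers. TMM library sizes came from edgeR 4.0.16 and alternative size factors from DESeq2 1.42.0, in R 4.3.3. With 1 group no quasi-likelihood test could be fitted, so libraries were compared by a two-sided exact conditional binomial test (scipy 1.17.1) over genes averaging 1 TPM or more, with a prior count of 2 in log2 ratios. Spike-ins and other entries without a gene, 0.444% of counts in replicate 2 and 0.500% in replicate 1, were left out of the genes tested. Summed spike-in counts served only as an alternative library size. The method was tested on simulated counts that held counting error only. That simulation cannot show how the test behaves where replicates differ by more than counting error. All 30 members could be named, with the 6 most abundant neighbouring genes, those 2-fold different or under 1 TPM, and the markers. Members and lists were chosen with earlier results of these data known. The alternatives were scaling, filters, the second table and leaving out a replicate.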

Additional observations from a re-analysis of the deposited data

How the results depend on the processing

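The median level of the 30 genes was 235.3 TPM, 289.5 TPM in the second table and 609.7 when TPM was rescaled to nuclear protein-coding genes alone, and it was between 220.7 and 250.0 TPM with 1 replicate left out. All 30 genes were detected at 0.5 TPM and in the second table, and 29 at 5 TPM. By expected counts the shares were 96.7% for Idh2 against Idh1, 40.2% for Mdh2, 50.9% for Got2, 95.6% for Ogdh, 77.5% for Sucla2 and 77.4% for Idh2 against Idh3a. By the second table they were 97.1% for Idh2 against Idh1, 45.5% for Mdh2, 60.9% for the 3 matrix isozymes together and 96.9% for Ogdh. The counts of all genes at 2-fold were 65 higher and 138 lower in replicate 2, 1273 and 737 with no filter, and 20 and 49 at a mean TPM of at least 5. The exact test called 1289 higher and 1922 lower, 694 and 3448 with total counts, and 2843 and 980 with spike-ins. Of the 30 genes it called 3 higher and 16 lower, 1 and 21 with total counts, and 10 and 8 with spike-ins. Among genes called under either scaling, the sign turned with spike-ins for Ogdh (0.0737), Sdha (0.0194), Sdhc (0.0676), Sdhd (0.00570), Fh1 (0.00608), Got2 (0.0816) and Glud1 (0.0870), and with total counts for Idh3g (-0.0652). The 3 scalings differ by construction, with a log2 library size of replicate 2 over replicate 1 of -0.14 for TMM, -0.06 for total counts and -0.23 for spike-ins. The median share of the leading transcript was 77.7%, 83.1% in the second table and between 77.9% and 78.5% with 1 replicate left out. Of the 30 levels, 23 moved by more than 1 SD under the second quantification. That number depends on the SD of 2 libraries as well as on the size of the move. Idh1 passed 1 SD at 1.07-fold (SD 0.346 TPM), while Idh3b did not at 1.14-fold (SD 51.7 TPM). The cause of the differences between the tables was not tested. No paired analysis was possible because all libraries belong to 1 group.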
